A study of Mus musculus with 36 samples.

Results

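The protein-coding genes Coa7, Hpdl, Hmox2, Dyrk3, Mb21d2, Abcc3 and Trim16 were followed through a SLAM-seq experiment in mouse embryonic stem cells (mES cells). They are 7 of the 18419 genes listed in all 6 deposited tables, and of 22979 listed in any. They were chosen by their read counts in the METTL3 line, for a strong and consistent rise after acute depletion of METTL3, so every value from that contrast of levels is a description, without a test. They are not the 7 genes with the largest rise. Among 1584 coding genes called higher after METTL3 depletion they ranked 5 (Trim16), 9 (Hpdl), 20 (Abcc3), 148 (Mb21d2), 174 (Dyrk3), 218 (Coa7) and 396 (Hmox2) by log2 fold change. A further 389 coding genes stood at or above Hmox2, the lowest of the 7 at 1.05, with Pramef8 just above it at 1.05 and 9930012K11Rik just below at 1.05.

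METTL3 is the enzyme that deposits N6-methyladenosine (m6A) on messenger RNA during transcription, within a larger writer complex. In the nucleus m6A is read by YTHDC1, and in the cytoplasm YTHDF proteins bind it and bring in the enzymes that remove the poly(A) tail, so methylated mRNAs are often short-lived. ZCCHC8 belongs to NEXT, a nuclear assembly that delivers short-lived transcripts to the RNA exosome. SLAM-seq tells new RNA from old: cells take up 4-thiouridine (4sU), which is alkylated after extraction and read as C in place of T, so T-to-C mismatches mark RNA made in the pulse.

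The 36 libraries came from XX mES cells of Cast x 129S background, in which a TetOn promoter drives Xist on the 129S allele and Xist carries Bgl stem loops. In 3 derived lines the endogenous METTL3, YTHDC1 or ZCCHC8 is fused at its C terminus to FKBP12F36V (clones 12D, Y12H and Z12H respectively), so that the small molecule dTAG-13 sends the fusion protein to degradation. Each line is 1 clone. Ctrl cells had no dTAG-13, and dTAG cells received it 2 h before doxycycline (1 µg/ml). All cells, Ctrl included, had doxycycline for 20 h, then 500 µM 4sU with doxycycline for 4 h and a chase in 50 mM uridine for 0, 90 or 180 min. dTAG-13 was thus present for 22 h before the pulse, and RNA made in those hours counts as old. Each combination had 2 replicates. That gives 12 libraries per line, 6 per line and arm. Each set of 6 holds 2 replicates at 0, 90 and 180 min, so 6 libraries or 6 pairs are not 6 independent repeats. Cells were grown on mouse fibroblast feeders and preplated to discard them.

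Libraries of the METTL3 line held 9547507 to 18652000 reads, those of the YTHDC1 line 10397753 to 16129632 and those of the ZCCHC8 line 5274684 to 10257631. All 10 mES cell markers examined were present, with a summed level of 2749 to 3860 CPM (read counts scaled to library size with TMM factors) in Ctrl libraries of the METTL3 line, against 2884 to 3202 CPM with dTAG-13. The 12 fibroblast markers summed to 36.6 to 68.2 and 44.9 to 76.2 CPM, with 1 of 8 tested called higher and Lum at 0 in Ctrl. The 10 markers of differentiating cells summed to 18.5 to 45.0 and 27.6 to 74.9 CPM, with 3 of 8 tested called higher, and their part in the rise of the 7 genes was not tested. In bulk RNA, more cells of a type and more RNA per cell cannot be told apart. The degron acts on protein: Mettl3 mRNA ranged from 53.9 to 62.7 CPM in Ctrl and from 55.1 to 61.7 CPM in dTAG libraries, and loss of the protein was not analysed here. In its own line Ythdc1 mRNA was higher with dTAG-13, at 157 to 308 CPM in Ctrl and 325 to 409 CPM in dTAG libraries. Zcchc8 mRNA in its line ran from 28.3 to 42.6 CPM and from 33.3 to 44.0 CPM.

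In the m6A consensus the GGACT form is methylated often, and sites cluster near stop codons and in long exons. Each of the 7 principal transcripts (GENCODE M21, mm10) holds GGACT, as do 91.6% of 13968 coding genes tested. To place this motif in each gene, the copy nearest the stop codon follows, in 25 bases 5′ to 3′ on the transcript strand, with GGACT in capitals.
Coa7: ggaaggccagGGACTactacagcag
Hpdl: gcagcacgtaGGACTgtacactcct
Hmox2: cttggtagctGGACTcttggcctgg
Dyrk3: tgctttccagGGACTgggttccaag
Mb21d2: agctaacattGGACTtggtaagaac
Abcc3: caaggatgcgGGACTtgcctagatg
Trim16: cagacttcatGGACTtgtctatttt

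These windows lie at chr4:108338270-108338294 (Coa7, plus strand), chr4:116820471-116820495 (Hpdl, minus), chr16:4766069-4766093 (Hmox2, plus), chr1:131128779-131128803 (Dyrk3, minus), chr16:28827623-28827647 (Mb21d2, minus), chr11:94343664-94343688 (Abcc3, minus) and chr11:62841802-62841826 (Trim16, plus). All 7 are in the last exon. Counted from the first base of the motif to the first base of the stop codon, GGACT lies 9 bases before it in Abcc3, 24 in Hmox2, 117 in Dyrk3, 289 in Coa7 and 336 in Hpdl, within coding sequence. In Mb21d2 and Trim16 it lies 110 and 839 bases after that point, in the 3′ UTR. The transcripts hold 14 copies in Abcc3, 4 in Coa7, 4 in Hpdl, 2 in Mb21d2 and 1 each in Hmox2, Dyrk3 and Trim16, against a median of 3 over all coding genes tested. A match of letters does not show methylation, which was not measured in these libraries.

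Exon structure varied among the genes. Hpdl has a single exon, Mb21d2 has 2, Coa7 and Dyrk3 have 3, Hmox2 and Trim16 have 6, and Abcc3 has 31. Thus 4 of 7 have 3 exons or fewer, against 13.9% of coding genes tested, and the longest exon takes up more than 50% of the transcript in 5 of 7, against 50.7%. The longest exon measures 3422 bases in Coa7, 2834 in Mb21d2, 2791 in Dyrk3, 2545 in Trim16, 1804 in Hpdl, 765 in Hmox2 and 478 in Abcc3. These shares describe a list chosen for its rise, and no test was made of them.

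Annotation of 2 of the genes is not clean. Hmox2 overlaps Cdip1 on the opposite strand, with 892 of its 2217 exon bases shared, and use of strand in counting was not stated. Cdip1 had a mean of 50.4 CPM in Ctrl libraries against 48.3 CPM after METTL3 depletion, a log2 fold change of -0.057. Trim16 overlaps Fbxw10 on its own strand, with 237 of 4568 exon bases shared, and Fbxw10 had means of 2.09 CPM in Ctrl, against 4.11 CPM with dTAG-13, a log2 difference of 0.99. How reads were split between such pairs is not known, so both genes are uncertain to that extent.

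Coa7, Hpdl and Hmox2 work in metabolism, the first 2 in mitochondria. Coa7 (chromosome 4, 108328140 to 108341544, plus strand) is an assembly factor of the respiratory chain. After acute depletion of METTL3 it rose from 37.3, 40.8 and 45.8 CPM (lowest, median and highest of 6 Ctrl libraries) to 82.1, 100.2 and 112 CPM in the 6 dTAG libraries. The log2 fold change was 1.27 (SE 0.096), and every dTAG library lay above every Ctrl library. Hpdl (chromosome 4, 116819904 to 116821707, minus strand), a mitochondrial dioxygenase-like enzyme of coenzyme Q headgroup synthesis, went from 2.35, 3.05 and 5.08 CPM to 7.73, 13.7 and 29.9 CPM. Its log2 fold change of 2.31 (SE 0.27) had the widest spread of the 7, with pairs from 1.49 to 3.02. Hmox2 (chromosome 16, 4726361 to 4766742, plus strand) encodes the constitutive haem oxygenase, which opens the haem ring. It went from 52.2, 57.1 and 66.5 CPM to 100.3, 123 and 133 CPM, a log2 fold change of 1.05 (SE 0.082).

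Dyrk3 (chromosome 1, 131127455 to 131138340, minus strand) is a kinase that dissolves stress granules and other condensates. It went from 61.9, 69.3 and 86.7 CPM to 150.2, 187 and 197 CPM, a log2 fold change of 1.34 (SE 0.091). Mb21d2 (chromosome 16, 28826176 to 28929673, minus strand) has the Mab21 domain that it shares with the DNA sensor cGAS. Its levels were 16.6, 20.8 and 23.2 CPM in Ctrl, against 50.4, 54.0 and 58.4 CPM with dTAG-13, a log2 fold change of 1.40 (SE 0.11). Both rose by about the same factor in all 6 pairs of a dTAG and a Ctrl library, between 1.16 and 1.51 on the log2 scale for Dyrk3 and between 1.29 and 1.60 for Mb21d2.

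The remaining genes were rare in Ctrl cells. Abcc3 (chromosome 11, 94343295 to 94392997, minus strand) is a membrane pump that exports organic anions and bile salts. It went from 0.889, 1.70 and 2.24 CPM to 4.39, 7.10 and 8.52 CPM, a log2 fold change of 2.05 (SE 0.14). Trim16 (chromosome 11, 62820231 to 62850808, plus strand) is a ubiquitin ligase that works with galectins at damaged lysosomes. It went from 0.889, 1.78 and 4.26 CPM to 7.07, 10.8 and 16.2 CPM, a log2 fold change of 2.48 (SE 0.19). The Ctrl levels rest on 9 to 32 reads per library for Abcc3 and 9 to 47 for Trim16. In all 7 genes the 6 dTAG libraries lay above the 6 Ctrl libraries, which 5.15% of the 14413 genes tested also did (2.75% lay wholly below), and nothing is read from that count because these values chose the genes.

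**Figure D1:**
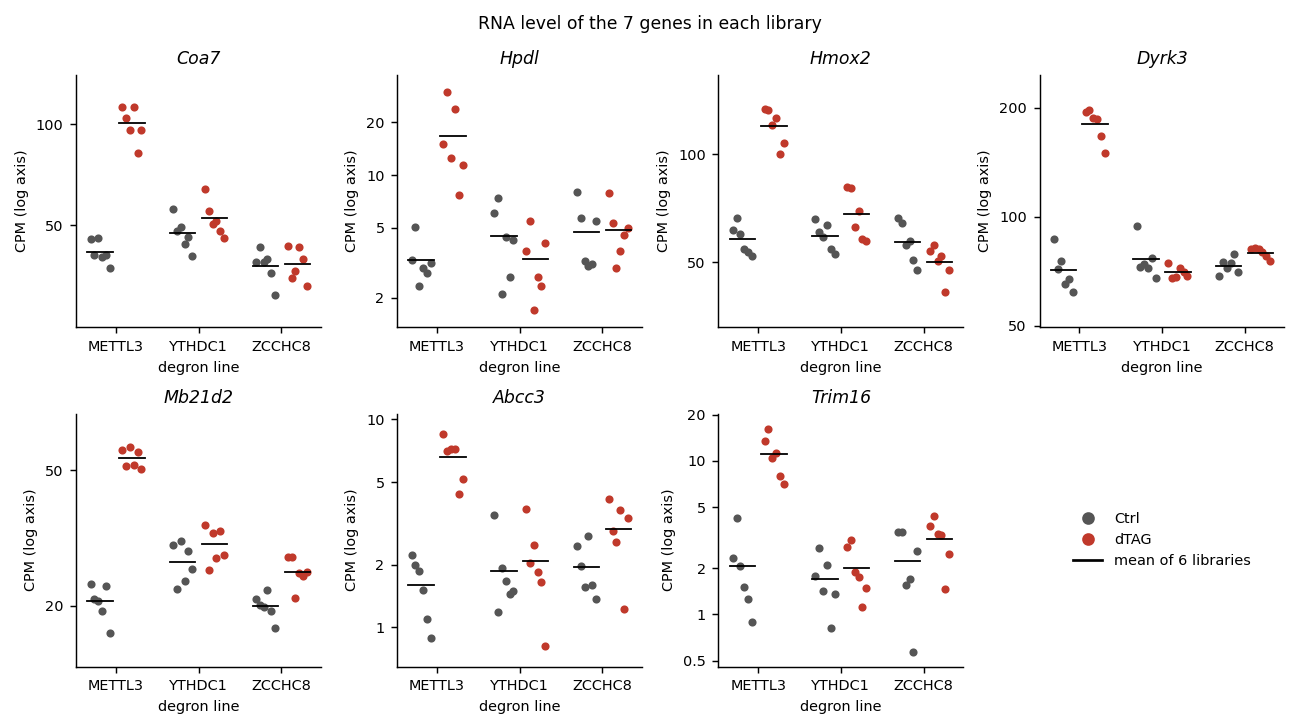
CPM on a log axis in each library of the METTL3, YTHDC1 and ZCCHC8 lines, Ctrl in grey and dTAG in red, with the mean of 6 libraries as a bar and libraries ordered from left to right by chase time. In the METTL3 line all 6 dTAG points lie above all 6 Ctrl points for every gene, and in the other lines the arms overlap.

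Per kilobase of transcript the order in Ctrl cells of the METTL3 line was Hmox2 at 33.5 ± 3.26 CPM per kb, Dyrk3 at 22.5 ± 2.82, Coa7 at 11.2 ± 0.887, Mb21d2 at 6.69 ± 0.792, Hpdl at 1.81 ± 0.527, Trim16 at 0.526 ± 0.308 and Abcc3 at 0.320 ± 0.106 (SD, n = 6). Trim16 and Abcc3 did not differ beyond that spread. In dTAG cells the order was Hmox2 at 69.4 ± 7.91, Dyrk3 at 57 ± 5.73, Coa7 at 27.1 ± 3.11, Mb21d2 at 17.6 ± 1.12, Hpdl at 9.27 ± 4.66, Trim16 at 2.82 ± 0.868 and Abcc3 at 1.32 ± 0.304 CPM per kb, so the order of the genes was kept.

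Whether the added RNA was new or old was read at 0 min of chase from the new-to-total ratio, which is GRAND-SLAM's estimate of the fraction of a gene's RNA made in the 4 h pulse. New RNA is CPM times that ratio and old RNA is the remainder. Old RNA was higher in dTAG than in Ctrl cells in both replicates for all 7 genes, and more than 50% of the gain in CPM was old RNA in 6 of them. New RNA was higher in both replicates in 6 of 7. For the median of 8289 genes with enough reads, new RNA changed by -0.16 and old RNA by 0.14 on the log2 scale.

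Coa7 was the extreme case. New Coa7 RNA was 33.4 and 31.9 CPM in Ctrl and 31.8 and 30.0 CPM in dTAG cells (replicates 1 and 2), while old RNA was 12.0 and 8.81 CPM in Ctrl and 80.7 and 74.0 CPM in dTAG cells. Old RNA thus held 102% and 103% of the gain, and new RNA was slightly lower. Hmox2 came close to this. Its new RNA was 31.7 and 32.6 CPM in Ctrl and 36.4 and 34.4 CPM in dTAG cells, and its old RNA went from 29.9 and 33.8 CPM to 97.0 and 98.6 CPM, which was 93.5% and 97.4% of the gain.

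In Mb21d2, Hpdl and Dyrk3 both parts were higher, and the old part held 51.5% to 77.9% of the gain. New Mb21d2 RNA was 20.1 and 18.9 CPM in Ctrl and 32.4 and 25.6 CPM in dTAG cells, and old RNA went from 3.11 and 2.09 CPM to 24.8 and 25.8 CPM. New Hpdl RNA went from 3.07 and 4.76 CPM to 6.71 and 13.2 CPM, and old RNA from 0.233 and 0.313 CPM to 8.33 and 16.7 CPM. New Dyrk3 RNA went from 80.1 and 70.8 CPM to 119 and 132 CPM, and old RNA from 6.58 and 0.693 CPM to 74.7 and 65.5 CPM. Little old RNA of these genes was left in Ctrl cells, so its fold change is poorly fixed. With the ends of the posterior intervals (5 to 95%) that lie closest set against each other, old RNA was still 8.06 and 26.6 times higher for Dyrk3, 8.33 and 16.8 times for Hpdl and 5.24 and 7.80 times for Mb21d2.

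In Abcc3 both parts were higher too, by similar factors. New Abcc3 RNA was 0.772 and 0.520 CPM in Ctrl and 3.24 and 2.22 CPM in dTAG cells, 4.20-fold and 4.27-fold higher, and old RNA went from 1.46 and 1.47 CPM to 5.28 and 4.81 CPM, 3.60-fold and 3.26-fold higher and 60.7% and 66.2% of the gain. Trim16 was the gene whose gain in CPM was mostly new RNA, although both parts were higher. New Trim16 RNA was 1.87 and 3.55 CPM in Ctrl and 10.1 and 12.2 CPM in dTAG cells, 5.38-fold and 3.43-fold higher. Old RNA went from 0.471 and 0.712 CPM to 3.30 and 4.01 CPM, 7.00-fold and 5.63-fold higher. With the closest posterior ends set against each other it was 2.57 and 2.45 times higher. Old RNA thus held 25.7% and 27.7% of the gain, although its fold change was no smaller than that of new RNA. New RNA was higher by 2.08 (Abcc3) and 2.10 (Trim16) on the log2 scale and total RNA by 1.87 and 2.22 (means of the replicates), on 21 to 47 reads per Ctrl library.

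**Figure D2:**
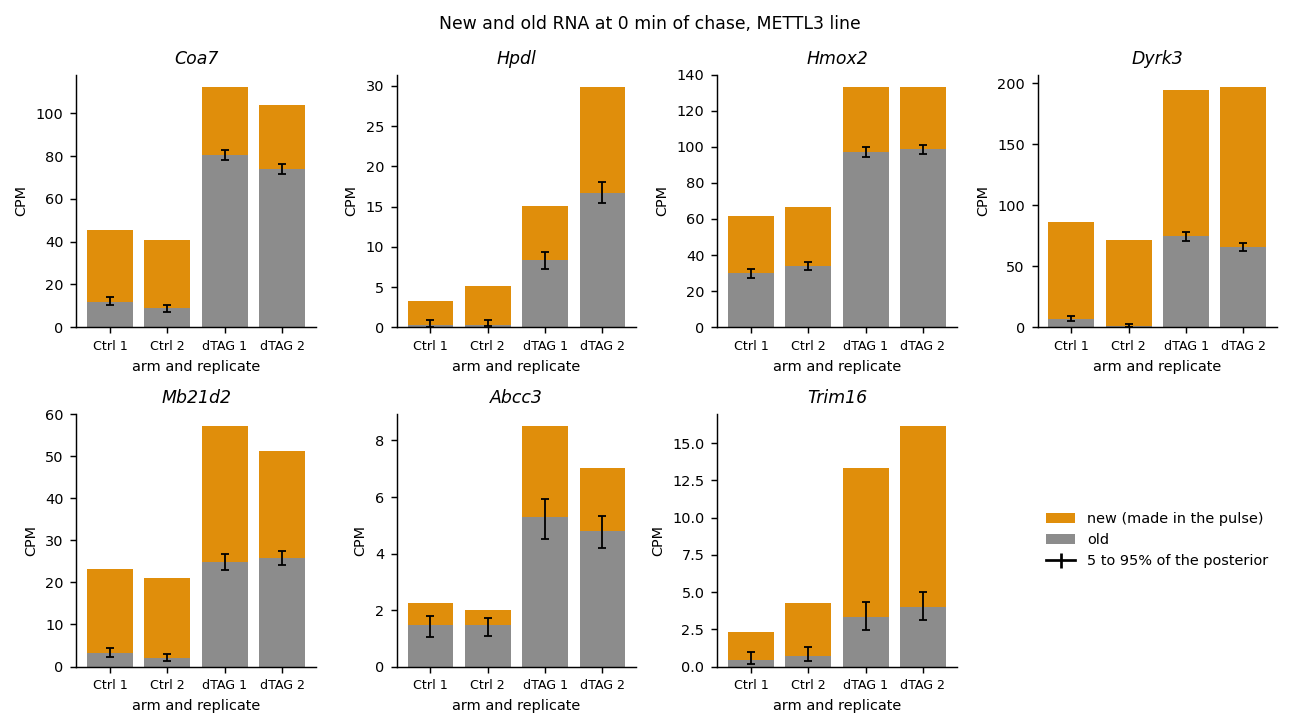
New RNA (orange) stacked on old RNA (grey), in CPM, at 0 min of chase in the 2 Ctrl and 2 dTAG libraries of the METTL3 line; bars in black give 5 to 95% of the posterior at the border between them. The grey part fills most of the dTAG bars of Coa7 and Hmox2, whereas the orange part of Trim16 grows from 1.87 and 3.55 CPM to 10.1 and 12.2 CPM.

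The ratio of new to total RNA gave these shares directly. In Ctrl replicates 1 and 2 it was 0.736 and 0.784 for Coa7, and in dTAG it was 0.283 and 0.288. For Hpdl it went from 0.929 and 0.938 to 0.446 and 0.440, and for Hmox2 from 0.514 and 0.491 to 0.273 and 0.258. For Dyrk3 it went from 0.924 and 0.990 to 0.615 and 0.668, and for Mb21d2 from 0.866 and 0.900 to 0.566 and 0.498. In these 5 genes the posterior intervals of the arms did not overlap in either replicate, as in 18.1% of 14413 genes with the lower ratio in dTAG cells and 2.25% with the higher. These values belong to the contrast that chose the genes, and the width of an interval depends on a gene's reads.

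Trim16, at 0.799 and 0.833 in Ctrl and 0.753 and 0.752 in dTAG, and Abcc3, at 0.345 and 0.261 in Ctrl and 0.381 and 0.316 in dTAG, overlapped. The median gene went from 0.599 to 0.503 in the same libraries (mean of the replicates), with a median difference of -0.037, so part of the lower ratio was common to many genes. The T-to-C rate, which does not depend on the model behind the ratio, was 5.15% and 6.39% in Ctrl and 2.13% and 2.603% in dTAG cells for Coa7. For Trim16 it was 6.55% and 5.91% in Ctrl and 5.85% and 6.52% in dTAG cells. The median gene was lower in dTAG cells by this measure too, at 4.36% and 4.83% in Ctrl and 3.63% and 4.31% in dTAG cells.

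If levels were steady during the pulse, a ratio can be written as a half-life. For Coa7 that gave 2.08 and 1.81 h in Ctrl and 8.34 and 8.15 h in dTAG cells, and for Hmox2 3.84 and 4.10 h against 8.71 and 9.27 h. For Mb21d2 it gave 1.38 and 1.204 h against 3.33 and 4.03 h, and for Hpdl 1.05 and 0.995 h against 4.69 and 4.78 h. Trim16 stood at 1.73 and 1.55 h in Ctrl and 1.98 and 1.99 h in dTAG cells. Abcc3 went the other way, at 6.55 and 9.18 h in Ctrl and 5.79 and 7.30 h in dTAG cells, with overlapping intervals. The median gene was at 3.06 and 3.09 h in Ctrl and 3.74 and 4.21 h in dTAG cells. For Dyrk3 it gave 1.08 and 0.598 h against 2.90 and 2.51 h. In Ctrl cells Coa7, Hpdl, Mb21d2, Dyrk3 and Trim16 were thus on the short-lived side of the median, and steadiness of their levels in the pulse was not tested. In the chase the mean levels fell, by differing amounts. From 0 to 180 min mean Trim16 went from 3.30 to 1.07 CPM in Ctrl and Hpdl from 22.5 to 9.58 CPM in dTAG cells. Abcc3 in Ctrl went from 2.12 to 0.995 CPM. Coa7 went from 43.1 to 39.0 CPM in Ctrl and from 108 to 89.2 CPM in dTAG cells. In dTAG cells Hmox2 went from 133 to 104 CPM, Dyrk3 from 196 to 159 CPM and Mb21d2 from 54.3 to 53.4 CPM. The half-lives are the less certain for it, most of all those of Trim16, Hpdl and Abcc3.

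The chase asks directly whether label was lost more slowly. Loss was tested as the difference between dTAG and Ctrl cells in the slope of the log2 ratio per hour, a measure and contrast that did not choose the genes. The ratio falls both through decay and through unlabelled RNA made in the chase. Of the 7, Coa7, Hmox2, Dyrk3 and Mb21d2 had at least 100 reads in every library and entered the test.

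Dyrk3 RNA lost label rapidly in Ctrl cells, from a ratio of 0.924 and 0.990 at 0 min to 0.627 and 0.749 at 90 min and 0.309 and 0.342 at 180 min. In dTAG cells it went from 0.615 and 0.668 to 0.584 and 0.711 and then to 0.470 and 0.605. The share of the 0 min ratio left at 180 min was 33.4% and 34.5% in Ctrl and 76.3% and 90.6% in dTAG cells, beside medians over all genes of 82.1% and 85.5% in Ctrl and 74.3% and 98.9% in dTAG cells. The slope was less steep by 0.43 per h on the log2 scale (SE 0.089, limma adjusted p = 0.0245), where 0.362% of 8289 genes were called slower and 0 faster. With the replicate block the limma adjusted p was 0.00446, where 0.953% of genes were called slower and 0.0241% faster. Without replicate 1 the difference was 0.46 and the call was lost. Without replicate 2 it was 0.40. Each of these fits rests on the chase times of 1 replicate.

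Coa7 and Mb21d2 pointed the same way without passing the threshold. The ratio of Coa7 was 0.372 and 0.419 at 180 min in Ctrl, 50.5% and 53.4% of that at 0 min, and 0.231 and 0.291 in dTAG cells, 81.6% and 101% of that at 0 min. The slopes differed by 0.27 per h (SE 0.085, limma adjusted p = 0.226). For Mb21d2 57.1% and 57.6% was left in Ctrl and 76.7% and 106% in dTAG cells, a difference of 0.22 per h (SE 0.088, limma adjusted p = 0.495). The labelled share of Hmox2 did not fall in either arm, with 98.1% and 117% left in Ctrl and 114% and 169% in dTAG cells, and a difference of 0.13 per h (SE 0.085, limma adjusted p = 0.932). A share above 100% means that the ratio was higher at 180 min than at 0 min, the cause of which was not tested. Old Hmox2 RNA in dTAG cells went from a mean of 97.8 CPM at 0 min to 64.7 CPM at 180 min, and new RNA from 35.4 to 39.0 CPM. With each library centred on its median gene, Dyrk3, Coa7 and Mb21d2 were called slower (limma adjusted p = 0.000419, 0.0153 and 0.00456), where 4.87% of genes were called slower and 5.27% faster.

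Hpdl, Abcc3 and Trim16 had too few reads for that test. Hpdl was at a ratio of 0.532 and 0.144 at 180 min in Ctrl, on 35 and 32 reads, and at 0.532 and 0.588 in dTAG cells. In dTAG cells the ratio of Hpdl was higher at 90 min (0.574 and 0.613) than at 0 min (0.446 and 0.440), while its level fell from 15.03 and 29.9 CPM at 0 min to 7.73 and 11.4 CPM at 180 min. Mean old Hpdl RNA fell with it, from 12.5 to 4.16 CPM. Trim16 kept 37.3% and 81.0% of its ratio in Ctrl and 41.4% and 87.7% in dTAG cells, so that replicates differed more than arms. Abcc3 went the other way from slower loss, at 180% and 245% of its 0 min ratio in Ctrl and 131% and 135% in dTAG cells. Its Ctrl libraries held 9 to 32 reads.

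**Figure D3:**
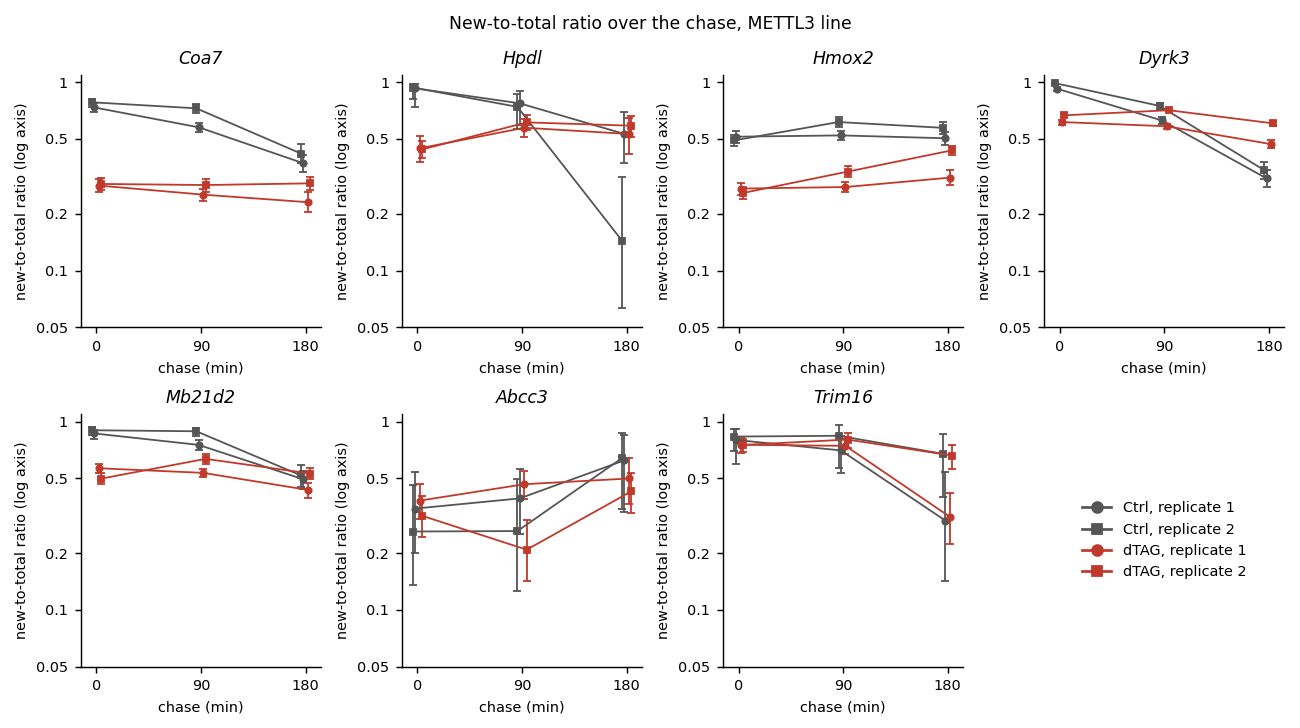
New-to-total ratio on a log axis against chase time in min for each replicate of the METTL3 line, Ctrl in grey and dTAG in red, with bars for 5 to 95% of the posterior. Dyrk3 falls from 0.924 and 0.990 to 0.309 and 0.342 in Ctrl cells and lies between 0.470 and 0.711 in dTAG cells, and Trim16 runs alike in both arms.

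Depletion of YTHDC1, the nuclear reader, gave a test of the same genes in libraries that did not choose them. Of the 7, edgeR called 0, where 5.25% of 14199 genes were called (2.48% higher, 2.77% lower). Hmox2 had an unadjusted p under 0.05, and DESeq2 also called 0. In no gene did the arms separate, as they did upward in 1.12% and downward in 1.19% of genes. Hmox2 ran at 52.7, 59.7 and 65.9 CPM without and 57.1, 66.1 and 81.2 CPM with dTAG-13, a log2 fold change of 0.19 (SE 0.069, adjusted p = 0.151 by edgeR). Coa7 ran at 40.4, 47.2 and 56.1 CPM without and 45.9, 51.1 and 64.3 CPM with dTAG-13, a log2 fold change of 0.15 (SE 0.074, adjusted p = 0.318 by edgeR). The 95% intervals ran from 0.040 to 0.34 for Hmox2 and from -0.014 to 0.31 for Coa7.

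Replicate number proved to pair the samples, and with it as a block 4 of 7 were called, where 27.3% of genes were. Hmox2 (0.19, SE 0.056, adjusted p = 0.0146 by edgeR), Coa7 (0.15, SE 0.053, adjusted p = 0.0392 by edgeR) and Mb21d2 (0.17, SE 0.062, adjusted p = 0.0468 by edgeR) were higher, in 6 of 6 pairs each. Hpdl was lower in 6 of 6 pairs, with a log2 fold change of -0.41 (SE 0.14, adjusted p = 0.0291 by edgeR). Its levels were 2.09, 4.36 and 7.38 CPM without and 1.70, 3.17 and 5.50 CPM with dTAG-13, and overlapped. Dyrk3 (-0.12), Abcc3 (0.12) and Trim16 (0.24) were not called in either fit. With the chase libraries of each replicate summed, 0 of the 7 were called in this line, where 0 of 15512 genes were.

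Depletion of ZCCHC8 called 3 of 7, where 39.6% of 13962 genes were called (20.1% higher, 19.5% lower). Again the arms separated in none of the 7, against 6.18% of genes upward and 2.67% downward. Mb21d2 rose from 17.2, 20.0 and 22.3 CPM to 21.1, 25.1 and 27.9 CPM, a log2 fold change of 0.34 (SE 0.079, adjusted p = 0.00132 by edgeR), higher in 6 of 6 pairs. Abcc3 held 10 to 21 reads per Ctrl library and 10 to 38 per dTAG library. It rose from 1.37, 1.79 and 2.75 CPM to 1.23, 3.13 and 4.13 CPM, by 0.63 on the log2 scale (SE 0.23, adjusted p = 0.0319 by edgeR and 0.106 by DESeq2, 5 of 6 pairs). Neither was called without replicate 2 (adjusted p = 0.0817 by edgeR and 0.380), and the arms overlapped in both.

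Hmox2 moved the other way in this line. It fell from 47.6, 56.6 and 66.2 CPM to 41.2, 51.3 and 55.8 CPM, a log2 fold change of -0.18 (SE 0.054, adjusted p = 0.0096 by edgeR), lower in 5 of 6 pairs, and was not called without replicate 1 (adjusted p = 0.159 by edgeR). With the replicate block 5 of 7 were called, where 45.9% of genes were, Dyrk3 (0.12, adjusted p = 0.0417 by edgeR) and Trim16 (0.52, adjusted p = 0.0476 by edgeR) being added. Coa7 (0.029, 95% interval -0.12 to 0.18) and Hpdl (0.092, -0.25 to 0.43) were called in neither fit. With the chase libraries of each replicate summed, only Mb21d2 was called (adjusted p = 0.0221 by edgeR), where 3828 of 15455 genes were. In that fit Abcc3 and Hmox2 were not called (adjusted p = 0.0629 and 0.088 by edgeR). In the ZCCHC8 line 5 of 8 markers of differentiating cells were called higher, from a sum of 25.3 to 38.3 CPM in Ctrl to 38.4 to 50.1 CPM in dTAG libraries, and their part in these values was not tested.

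The response of Hmox2 differed between these lines, by -0.37 on the log2 scale (ZCCHC8 minus YTHDC1, SE 0.085, adjusted p = 0.0032 by edgeR), where 19.7% of 14752 genes differed. No other of the 7 passed, and with the replicate block Dyrk3 did as well (0.23, SE 0.073, adjusted p = 0.0113 by edgeR). The largest change called in either line, 0.63 for Abcc3, compares with 2.05 for the same gene in the METTL3 line.

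The new-to-total ratio at 0 min was compared in these lines as well. The ratio of Coa7 at 0 min was 0.725 and 0.749 in Ctrl and 0.649 and 0.693 in dTAG cells of the YTHDC1 line, and 0.677 and 0.733 against 0.677 and 0.764 in the ZCCHC8 line. Dyrk3 was at 0.961 and 0.976 against 0.913 and 0.973, and at 0.986 and 1.000 against 0.970 and 0.966. For none of the 7 did the posterior intervals of the arms separate in both replicates of either line, where the YTHDC1 line had 1.17% of genes apart with the lower ratio in dTAG cells and 4.04% with the higher. The ZCCHC8 line had 2.35% and 0.315%.

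Single genes showed differences in old or new RNA in both replicates. In the YTHDC1 line old Hmox2 RNA was 34.0 and 29.2 CPM in Ctrl against 45.6 and 45.7 CPM with dTAG-13, and with the closest posterior ends set against each other it was 1.196 and 1.39 times higher. Old Coa7 RNA was 15.4 and 12.1 CPM against 22.6 and 16.9 CPM, by the same ends 1.17 and 1.09 times higher. In the ZCCHC8 line new Abcc3 RNA was 0.530 and 0.433 CPM against 1.79 and 1.04 CPM, 3.38-fold and 2.40-fold higher, and its ratio went from 0.215 and 0.218 to 0.434 and 0.358 with intervals that overlapped. These are values of 2 replicates without a test. Of the 4 genes tested, limma called 0 for the ratio at 0 min and 0 for label loss in either line, and 0 had an unadjusted p under 0.05. The ratio at 0 min was called lower in 0.0113% and higher in 0.0113% of genes of the YTHDC1 line, and in 0.0138% and 0.0276% of the ZCCHC8 line. Label loss differed in 0 of 8820 and 0 of 7251 genes by limma, with 173 and 129 at an unadjusted p under 0.05. Through the chase the median gene of the ZCCHC8 line kept 118.5% and 97.8% of its 0 min ratio in Ctrl cells. In dTAG cells it kept 106.5% and 107.9%. With so little loss in Ctrl cells, slower loss could hardly show, so nothing is read from the 0 of 7251. Of the 4 genes, Ctrl cells of this line kept 52.1% and 37.2% for Dyrk3 and 63.7% and 68.4% for Mb21d2. They kept 91.5% and 60.2% for Coa7 and 160% and 113% for Hmox2. For Dyrk3 the difference in slope was -0.094 per h after YTHDC1 depletion (95% interval -0.26 to 0.068) and 0.067 after ZCCHC8 depletion (-0.080 to 0.21).

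**Figure D4:**
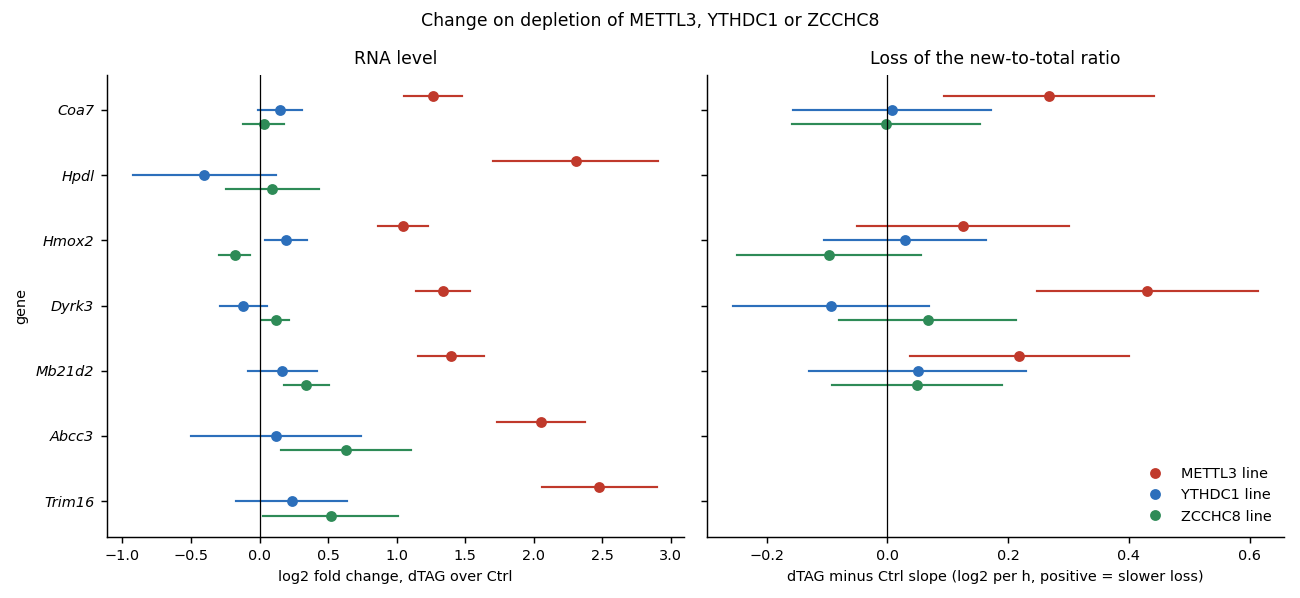
Left, log2 fold change of RNA level (dTAG over Ctrl) with its 95% interval in the METTL3, YTHDC1 and ZCCHC8 lines; right, difference in the slope of the log2 ratio per h for the 4 genes with enough reads, positive where loss is slower. In the METTL3 line, which chose the genes, changes in level run from 1.05 to 2.48, and in the other lines from -0.40 to 0.63; Dyrk3 has the largest difference in slope at 0.43.

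Relatives of the 7 genes came from lists chosen with earlier results of these data known, and no list was tested as a group. In the METTL3 line 11.3% of genes were called higher and 8.80% lower. Of 3 further DYRK kinases tested 1 was called higher, Dyrk2, which had 17.7 ± 2.19 CPM in Ctrl and 32.7 ± 1.22 CPM with dTAG-13 (SD, n = 6), higher by 0.89 on the log2 scale (SE 0.11, adjusted p = 0.000344 by edgeR). Of 20 assembly factors of cytochrome c oxidase 2 were called higher, Coa6 by 0.77 (SE 0.18, adjusted p = 0.0116 by edgeR) and Cox19 by 0.65 (SE 0.15, adjusted p = 0.0111 by edgeR). The list had a median of 0.094 against 0.0056 for all genes. Haem breakdown had 0 of 3 called. Medians of the lists ran from -0.75 for 4 MAB21 family genes to 0.45 for haem breakdown, with 0.28 for the DYRK kinases.

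Other lists had members called lower. Of 7 Abcc transporters Abcc6 (-1.39, adjusted p = 0.00713 by edgeR) and Abcc5 (-0.36, adjusted p = 0.028 by edgeR) were lower and none higher. Of 8 genes of the lysosome damage response Lgals3 (-0.98, adjusted p = 0.000629 by edgeR) and Lgals8 (-0.75, adjusted p = 0.00664 by edgeR), both galectins, were lower. Of 4 MAB21 family genes Mab21l2 (-1.60, adjusted p = 0.0197 by edgeR) and Mab21l3 (-0.93, adjusted p = 0.00086 by edgeR) were lower. Tyrosine breakdown had 1 of 2 lower (Fah, -1.01, adjusted p = 0.000855 by edgeR), coenzyme Q synthesis 1 of 11 (Coq6, -0.46, adjusted p = 0.0127 by edgeR) and targets of NRF2, a list to which Abcc3 is often assigned, 1 of 15 (G6pdx, -0.28, adjusted p = 0.0373 by edgeR).

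Over the 18 group means of log2 CPM, centred within each line, the genes outside the list whose pattern was most like the mean of the 7 were Prune1 (Pearson r = 0.98), Csnk1e (0.97) and Mrpl46 (0.97), of 13630 genes compared. Members themselves ranged from 0.92 (Hpdl) to 0.98 (Coa7) against the same mean, of which each is part. The points share libraries and the rise in the METTL3 line, so these are descriptions. Their log2 fold changes were 0.52, 0.76 and 1.31 in the METTL3 line and between -0.071 and 0.086 in the other lines.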

How the data were processed

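The authors discarded reads aligned to rRNA, mapped the rest to mm10 with STAR 2.5.2b (unique, end-to-end, mismatches capped), then used GRAND-SLAM, whose version and use of strand are not given in the sources used here. Such a cap can remove heavily converted reads. The deposited read counts per gene are whole numbers without normalization. New-to-total ratios were deposited as a fraction between 0 and 1, and used as the posterior maximum (MAP), mean and 0.05 and 0.95 quantiles. The deposited conversion and coverage signal gave the T-to-C rate. The deposited transcript length, a column of another unit, gave CPM per kb. A further 180 columns of library values were not used here.

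Counts of each line were fitted with edgeR 4.0.16 in R 4.3.3 (filterByExpr, TMM, robust quasi-likelihood, chase time as a factor, Benjamini-Hochberg over all genes tested, threshold 0.05), and slopes of the log2 MAP ratio with limma 3.58.1 for genes whose 12 libraries each had 100 reads or more and a ratio no lower than 0.02. DESeq2 1.42.0 was an alternative. All 7 genes passed the count filter in each line, and 4 passed the read minimum. Fits were tested on simulated data. Values of new and old RNA and pairs of libraries were compared within a replicate, since the authors deposited 1 table per line and replicate. The main edgeR and limma fits had no term for replicate, which only the replicate block added. The test between the ZCCHC8 and YTHDC1 responses was added after seeing the data. Fits that leave out a replicate set the chase times of the other replicate against each other, so their p-values do not measure spread between replicates. The study calls its repeats independent repeats of a single clone. The replicate numbers of the labels pair the samples: deviations of same-numbered Ctrl and dTAG libraries correlated by 0.19 to 0.79 in all 9 comparisons of a line and time.

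The genes and all lists were chosen with earlier results of these data known. Named genes are the 7 members, at most 2 called genes per related list with the largest change in the METTL3 line, and the 3 genes outside the list most alike in pattern. Intervals on ratios cover counting error only.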

Additional observations from a re-analysis of the deposited data

Results flagged for a closer look

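Hmox2 responded differently to depletion of ZCCHC8 and of YTHDC1. The difference in its log2 fold change was -0.37 (ZCCHC8 minus YTHDC1, edgeR adjusted p = 0.0032), and it was also past the threshold with the replicate block (-0.37). It was -0.36 without replicate 1 and -0.41 without replicate 2, each on the chase times of 1 replicate. The test was not run with chase libraries summed or at 0 min alone. Hmox2 was higher in 6 of 6 pairs of the YTHDC1 line and lower in 5 of 6 pairs of the ZCCHC8 line. Cdip1, which shares exon bases with Hmox2, had log2 fold changes of 0.0057 and -0.098 in these lines. The part of its reads in the Hmox2 values was not tested.

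Hpdl was higher in all 6 pairs of the METTL3 line, with a median log2 difference of 2.30, and lower in all 6 pairs of the YTHDC1 line, with a median of -0.36. The difference between the lines was not tested, because the rise in the METTL3 line chose the gene.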

How the results depend on the processing

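The median log2 fold change of the 7 genes in the METTL3 line, 1.40, kept its sign under every alternative run and lay between 1.39 and 1.43 when a replicate was left out. The genes were chosen for a consistent rise in these same libraries, so nothing is read from that steadiness. Of the YTHDC1 line, 0 genes were called without the replicate block, 4 with it and 0 to 2 without a replicate. Of the ZCCHC8 line, 3 were called, against 5 with the replicate block, 1 with the chase libraries summed, 0 at 0 min alone and 1 to 2 without a replicate. The difference between these responses, chosen after seeing the data, was called for 1 gene, or 2 with the block. Slower label loss in the METTL3 line was called for 1 gene with and without the block, for 3 after centring on the median gene and for 0 with the T-to-C rate, labelled CPM, a minimum of 20 reads or, chosen after seeing the data, of 5 reads, and for 0 to 1 without a replicate. The cause was not tested. Median new RNA of the 7 at 0 min changed by 0.74 (0.69 to 0.90 without a replicate, 0.90 relative to the median gene), and the ratio by -0.32 (-0.28 relative to the median gene).

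Some values that were not called changed sign: the ZCCHC8 fold change of Coa7 (-0.067 at 0 min alone, -0.022 to 0.070 without a replicate), the YTHDC1 slopes of Coa7 and Hmox2 (-0.018 and -0.054 with labelled CPM, -0.019 to 0.033 and -0.032 to 0.090 without a replicate), and the ZCCHC8 slopes of Coa7 (0.029 with the T-to-C rate, 0.059 with labelled CPM, -0.055 to 0.050 without a replicate) and Hmox2 (-0.27 to 0.078 without a replicate).

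Over all genes edgeR called 2898 in the METTL3 line, 6994 with the block, 7472 and 5717 without replicate 1 and 2, and 0 with libraries summed or at 0 min alone (1434 and 1512 at an unadjusted p under 0.05). In the YTHDC1 line it called 746, 3875 with the block, 3555 and 1335 without replicate 1 and 2, and 0 summed or at 0 min alone (698 and 512 unadjusted), and DESeq2 called 1127. In the ZCCHC8 line it called 5533, 3409 without replicate 2 and 1373 at 0 min alone. Label loss in the METTL3 line was called for 30 genes, 81 with the block, 841 after centring, 11 with the T-to-C rate, 0 with labelled CPM, 5 and 4 with 20 and 5 reads, and 2 and 256 without replicate 1 and 2, and in the ZCCHC8 line for 0, or 26 without replicate 2. The difference of responses was called for 2910 genes, 5772 with the block and 4988 without replicate 1. Depth limits Abcc3, Trim16 and Hpdl, with under 100 reads in every Ctrl library.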
